A study of Mus musculus with 1024 samples.

Results

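Among the endothelial cells (ECs) sorted from the mouse aorta, a group of wells held high levels of MHC class II transcripts. The group was defined by a sum of 1000 CPM (counts scaled to the gene counts of the well) or more over H2-Aa, H2-Ab1, H2-Eb1 and Cd74, in Endothelial wells with at least 20000 gene counts, 500 genes and 1 Cdh5 count. The rule found 172 MHC class II-high cells among 639 such ECs, in a series of 1024 wells. Single cells of 6 WT and 6 KO mice aged 3 months, pooled within each preparation, had been depleted of Cd45+ cells with magnetic beads, sorted as Cd31+Cd45- (Endothelial) or Cd31-Cd45- (DoubleNegative) and sequenced with Smart-seq2, which reads whole transcripts and carries no molecular identifiers. The KO mice carried floxed Amotl2, a Cdh5-driven, tamoxifen-inducible Cre and the ROSA26-EYFP reporter, so that deletion was directed to the endothelial lineage. The strain label of the knockout reads Amotl2flow/flow / Cdh5-RREert /ROSA26-EYFP, and whether the WT mice carried Cre or received tamoxifen was not given in the sources used here. Each genotype was sorted on 2 occasions. Sort 1 placed WT and KO cells on separate plates, whereas sort 2 placed both on 1 plate, so genotype and plate cannot be told apart in sort 1. The 4 combinations of genotype and sort are called units here.

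MHC class II molecules are heterodimers that display peptides from the endosomal route to CD4+ T cells. H2-Aa, H2-Ab1 and H2-Eb1 encode chains of I-A and I-E, Cd74 encodes the invariant chain that guides them to the endosome, and H2-DM exchanges the invariant chain fragment for peptide. The genes share the transactivator Ciita, which acts at X and Y boxes of their promoters. Interferon gamma is the best known inducer of Ciita in endothelium, and it also raises class I genes, the immunoproteasome and the guanylate-binding proteins (GBPs) and immunity-related GTPases (IRGs) of cell-autonomous defence, through GAS and ISRE elements.

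The stretches below are shown because they carry these elements next to genes described in the results. Each is the 150 bases before the transcription start, from RefSeq on GRCm38.p6, 5′ to 3′ on the strand of the gene. For the class II genes, capitals mark the X box core (CTAGNAAC) and the Y box (CCAAT), on either strand.
H2-Aa, chr17:34287824-34287973, minus strand: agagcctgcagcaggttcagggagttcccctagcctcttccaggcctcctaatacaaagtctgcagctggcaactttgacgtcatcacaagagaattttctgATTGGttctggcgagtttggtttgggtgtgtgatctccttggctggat
H2-Eb1, chr17:34305717-34305866, plus strand: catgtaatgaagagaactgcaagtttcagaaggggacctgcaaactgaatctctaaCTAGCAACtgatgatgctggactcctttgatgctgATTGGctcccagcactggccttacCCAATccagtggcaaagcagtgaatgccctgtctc
H2-DMb1, chr17:34153041-34153190, plus strand: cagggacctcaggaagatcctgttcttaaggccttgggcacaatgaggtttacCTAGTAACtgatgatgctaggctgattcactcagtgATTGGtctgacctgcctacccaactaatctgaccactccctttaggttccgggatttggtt

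For the GTPase genes, capitals mark GAS (TTCNNNGAA) and ISRE letters (GAAA, any 2 bases, GAAA), on either strand.
Igtp, chr11:58199406-58199555, plus strand: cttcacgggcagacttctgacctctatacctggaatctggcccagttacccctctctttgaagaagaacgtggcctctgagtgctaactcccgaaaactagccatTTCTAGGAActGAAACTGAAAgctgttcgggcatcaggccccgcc
Irgm2, chr11:58214827-58214976, plus strand: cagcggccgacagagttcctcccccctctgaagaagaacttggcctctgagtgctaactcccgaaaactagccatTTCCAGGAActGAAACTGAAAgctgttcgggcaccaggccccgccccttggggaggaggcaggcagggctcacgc
Tgtp2, chr11:49064213-49064362, minus strand: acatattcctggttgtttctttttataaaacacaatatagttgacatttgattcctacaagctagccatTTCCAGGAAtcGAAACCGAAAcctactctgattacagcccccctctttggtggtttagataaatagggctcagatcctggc
Gbp3, chr3:142559894-142560043, plus strand: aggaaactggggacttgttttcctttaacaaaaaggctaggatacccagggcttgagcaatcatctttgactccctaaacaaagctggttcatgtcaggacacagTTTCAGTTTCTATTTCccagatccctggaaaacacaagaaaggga

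H2-Eb1 and H2-DMb1 held both class II elements, with the X box core starting 94 and 97 bases before the start. H2-Aa held a Y box and no exact match to CTAGNAAC, which does not show that its promoter lacks an X box. Over all 32851 windows of this length the X box core was found in 1.93%, the Y box in 24.5% and both together in 0.411%. Igtp, Irgm2 and Tgtp2 each held GAS and ISRE letters side by side, whereas Gbp3 held a pair of overlapping ISRE matches and no GAS. Gbp3 had 2 promoter entries, and the stretch shown was chosen for having the most matches. GAS letters were found in 4.09% of all windows, ISRE letters in 1.59% and both in 0.1%. Of the 12 GBP and IRG genes with an entry, 6 held both in 1 window. The GAS match of Igtp overlapped letters of the X box core. H2-Ab1, Ciita, Iigp1 and Gbp6 had no entry. A match is a description of letters and not of binding.

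The MHC class II-high cells were spread very unevenly over the units. WT sort 1 held 155 of 215 ECs (72.1%, 95% Clopper-Pearson interval 65.6 to 78.0), which was 90.1% of all members. WT sort 2 held 3 of 48 (6.25%, 1.31 to 17.2), KO sort 1 held 7 of 287 (2.44%, 0.986 to 4.96) and KO sort 2 held 7 of 89 (7.87%, 3.22 to 15.5). The interval of WT sort 1 lay apart from those of the other 3 units, while both genotypes of sort 2, which shared a plate, had overlapping intervals. These intervals cover counting error only. The mean share was 39.2% in WT and 5.15% in KO, and an exact two-sided permutation test over the 4 units gave p = 0.667, where 0.333 was the smallest value that 2 against 2 units allow. A genotype difference was therefore not shown.

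**Figure D1:**
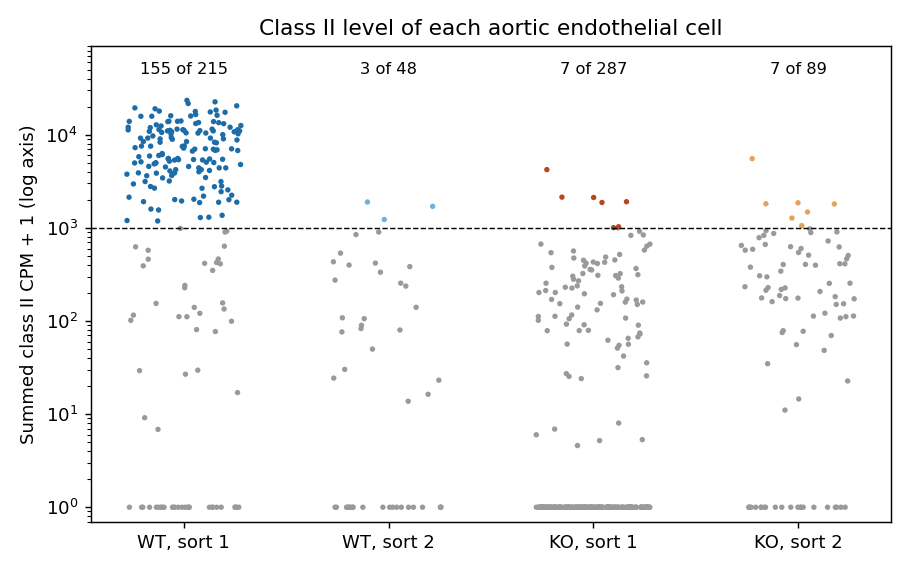
Each point is 1 endothelial cell, the y axis gives its class II sum (H2-Aa, H2-Ab1, H2-Eb1 and Cd74) in CPM plus 1 on a log axis, the x axis gives the unit, coloured points are MHC class II-high cells and the dashed line is the threshold of 1000 CPM. WT sort 1 has 155 of its 215 cells above the line, against 3 to 7 cells in each other unit.

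The values that chose the members are given as a description, with no test. The summed CPM of members had a lowest value of 1186, a median of 7064 and a highest value of 23427 in WT sort 1. In WT sort 2 the 3 members stood at 1230, 1704 and 1895. KO sort 1 members ranged from 1005 to 4223 with a median of 1910, and KO sort 2 members from 1056 to 5541 with a median of 1807. Members of WT sort 1 thus reached higher than any member elsewhere, and 102 of them lay above 5000, against 1 in the other units. Just inside the threshold lay cells at 1005, 1028, 1056, 1186 and 1199, and just outside it cells at 999.7, 987.7, 974.8, 933.9 and 923.7. Between 500 and 2000 CPM there were 63 cells, of which 38 were outside and 25 inside. They were 18 of 215 cells in WT sort 1, 6 of 48 in WT sort 2, 15 of 287 in KO sort 1 and 24 of 89 in KO sort 2. Among the other ECs, none of the 4 genes had a count in 45% of cells of WT sort 1, 46.7% of WT sort 2, 68.6% of KO sort 1 and 26.8% of KO sort 2.

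All 4 genes were detected in 158 of the 172 members, and 3 members rested on 1 or 2 of them. The make-up of the class II reads differed among units. Cd74 gave a median of 50.5% of the 4 genes' reads per member in WT sort 1, 19.5% in WT sort 2, 25.9% in KO sort 1 and 37.7% in KO sort 2. These are shares of reads, not corrected for transcript length, and they are compared between units only. In pooled counts Cd74 stood at 4282 CPM in members and 27.0 in other ECs of WT sort 1. The pairs were 252 and 13.7 CPM in WT sort 2, 575 and 15.5 in KO sort 1, and 712 and 38.4 in KO sort 2. H2-Aa stood at 1849 and 47.6 CPM, 681 and 57.7, 572 and 32.8, and 460 and 77.7 in the same order.

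Endothelial markers were present in the members. Pecam1, the Cd31 antigen of the sort, stood at 9542, 8506, 6973 and 7471 CPM in members of WT sort 1, WT sort 2, KO sort 1 and KO sort 2, against 6688, 8261, 7744 and 7134 in other ECs. Cdh5 (VE-cadherin), which the rule required in every cell, stood at 209, 352, 355 and 189 CPM against 195, 206, 295 and 214. The sort and the rule thus fixed the presence of both in advance. A list of 20 endothelial identity genes summed to 26963, 21366, 18887 and 23205 CPM in members. In other ECs it summed to 24942, 23156, 22906 and 22508. Leukocyte markers were nearly absent, in wells that had been depleted of Cd45+ cells and sorted as Cd45-. The sort thus favoured low levels of these markers in advance. Of a list of 26 immune genes, any had a count in 6 of 155 members of WT sort 1, at most 177 CPM in a cell, and in 10 of 60 of its other ECs, and none had a count in the 17 members of the other units. Ptprc (Cd45), Csf1r, C1qa, Cd79a and Cd3e were at 0 in all 172. The summed level of the list was 2.0 CPM in members and 43.8 in other ECs of WT sort 1, and 0 in members of the other 3 units against 4.4 to 11.7 in their other ECs. In other ECs of WT sort 1 these counts all came from 1 gene of the list, and in members from 3 genes. For 7 markers (Ptprc, Cd68, Csf1r, Lyz2, C1qa, Cd79a and Cd3e), 2 of 155 members and 0 of 60 other ECs of WT sort 1 had a count. Elsewhere no member had one, against 3 of 45, 8 of 280 and 5 of 82 other ECs. None of the 108 DoubleNegative wells reached the threshold, with a highest value of 558.8 CPM. Smooth muscle genes were present in both classes, at a summed level of 757, 2386, 517 and 115 CPM in members and 716, 581, 1565 and 961 in other ECs of the 4 units. Medians per cell were 94.6, 0, 91.4 and 34.1 CPM in members and 190, 133, 97.0 and 102 in other ECs. In WT sort 2, 1 of 3 members had any count of the list. A single member of WT sort 1 reached 38878 CPM. The part of these genes in the results was not tested.

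Depth differed little between the classes within WT sort 1, at a median of 134466 gene counts in members and 123737 in other ECs. Medians were 134375 and 165130 in WT sort 2, 250586 and 271206 in KO sort 1, and 33389 and 60218 in KO sort 2. In WT sort 1 the share of members ranged from 53.3% to 81.2% over the 14 plate rows. Gene counts do not resolve which part of a gene was deleted. Amotl2 had a count in 93 of 155, 2 of 3, 2 of 7 and 3 of 7 members, against 27 of 60, 34 of 45, 105 of 280 and 48 of 82 other ECs. EYFP had a count in 3 of 155 and 0 of 3 WT members, against 5 of 7 and 7 of 7 KO members. Among other ECs it had a count in 1 of 60 and 2 of 45 WT cells, and in 219 of 280 and 69 of 82 KO cells.

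To ask which other genes differed between MHC class II-high and other ECs, counts were summed per class and unit and fitted with the unit as a block, by quasi-likelihood in edgeR, and p-values were adjusted over all genes by Benjamini and Hochberg's method. WT sort 2 was left out of the fit, since it had under 5 members. None of 11245 genes passed an adjusted p of 0.05 (0% higher and 0% lower), while 283 had an unadjusted p under 0.05 (0.898% higher and 1.62% lower) and DESeq2 called 13 higher (0.116%) and 6 lower (0.0534%). The fit had 2 residual degrees of freedom. The values below therefore describe levels, and no gene is said to have changed. In total, 2.13% of tested genes were higher in members in all 4 units and 16.4% were lower in all 4. The median fitted log2 difference over all genes was -0.36.

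The remaining class II pathway split by role. H2-DMa, a chain of the peptide editor, stood at 382 CPM in members and 5.39 in other ECs of WT sort 1, 280 and 6.40 in WT sort 2, 92.8 and 5.45 in KO sort 1, and 133 and 17.6 in KO sort 2. It was higher in members in every unit, with a fitted log2 difference of 4.46 (SE 0.61, adjusted p = 0.110, edgeR). It was the gene nearest to the threshold, and DESeq2 gave an adjusted p of 1.3e-10. Its partner H2-DMb1 stood at 140 and 3.14 CPM, 75.4 and 12.9, 36.6 and 10.8, and 108 and 30.0, with a log2 difference of 2.98 (SE 0.83, adjusted p = 0.999, edgeR). With every cell thinned to 20000 counts, H2-DMa was detected in 80.6% of members and 8.33% of other ECs of WT sort 1, and in 100%, 42.9% and 71.4% against 15.6%, 6.07% and 17.1% in the other units.

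Ciita, the transactivator, was low in reads and had a count in 49 of 155 members and 1 of 60 other ECs of WT sort 1. Elsewhere 1 of 3, 1 of 7 and 1 of 7 members had a count, against 3 of 45, 11 of 280 and 5 of 82 other ECs. Its pooled level in KO sort 1 was 0.562 CPM in members and 3.62 in other ECs. H2-Oa, whose product restrains H2-DM, and Ctss, the protease that trims the invariant chain in antigen-presenting cells, were at 0 in both classes of every unit. The cathepsin Ctsl stood at 619, 538, 706 and 612 CPM in members and 630, 639, 635 and 669 in other ECs, with a log2 difference of 0.09 (SE 0.19). Of 15 tested genes of this list, 2 were higher in all 4 units, both of them H2-DM genes, and the median log2 difference was -0.03.

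Of 21 tested class I and antigen processing genes, 17 were higher in members in the fit, and none passed in edgeR. For 15 of the 21 the direction was not the same in all 4 units. B2m, the class I light chain, stood at 11688 and 6538 CPM in WT sort 1, 10613 and 5555 in WT sort 2, 6236 and 4261 in KO sort 1, and 10155 and 7609 in KO sort 2, a log2 difference of 0.69 (SE 0.15, adjusted p = 0.605, edgeR). H2-K1, a classical class I heavy chain, stood at 5105 and 2722 CPM, 5111 and 2151, 3903 and 2367, and 3841 and 2933. Both genes were higher in members in 4 of 4 units. Of the 21 tested genes, 6 were higher in all 4 units and 0 lower in all 4, beside 2.13% and 16.4% of all tested genes. The median log2 difference was 0.53. The immunoproteasome subunits Psmb8 and Psmb9 were higher in both sort 1 units but not in WT sort 2, where they stood at 171 and 201 CPM, and 123 and 147 CPM. Tap1, a chain of the peptide transporter, stood at 231 and 70.8 CPM in WT sort 1 and 44.5 and 70.5 in KO sort 2.

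**Figure D2:**
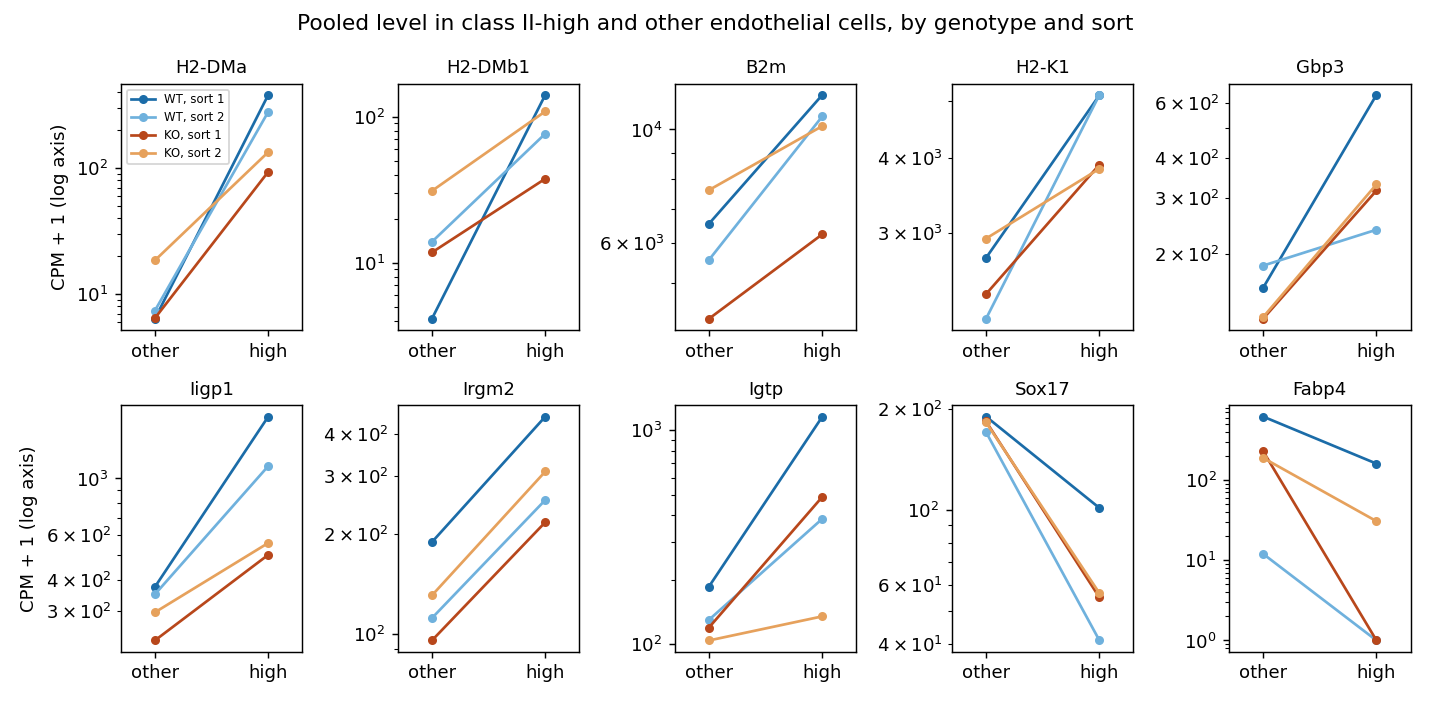
Each line joins the pooled level of a gene in other endothelial cells and in MHC class II-high cells of 1 unit, on a log axis of CPM plus 1. H2-DMa, H2-DMb1, B2m, H2-K1, Gbp3, Iigp1, Irgm2 and Igtp slope upward in all 4 units, whereas Sox17 and Fabp4 slope downward. The genes shown were picked with their values known.

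The GBPs and IRGs, which act on membranes around intracellular pathogens, were the list with the most members on 1 side. Of 17 tested genes, 10 were higher in all 4 units and 0 were lower in all 4, beside 2.13% and 16.4% of all tested genes, and the median log2 difference was 1.3. Gbp3 stood at 634 and 155 CPM in WT sort 1, 237 and 182 in WT sort 2, 316 and 123 in KO sort 1, and 330 and 125 in KO sort 2 (log2 difference 1.69, SE 0.26, adjusted p = 0.159, edgeR). Iigp1 stood at 1752 and 373 CPM, 1118 and 349, 499 and 229, and 556 and 296. Its log2 difference was 1.51 (SE 0.26, adjusted p = 0.216, edgeR). Irgm2, whose promoter is printed above, stood at 451 and 188, 252 and 110, 216 and 94.3, and 308 and 129 CPM. Igtp showed the most uneven ratios, at 1159 and 184, 385 and 129, 488 and 118, and 133 and 103 CPM. Gbp7 and Gbp2 went the other way in KO sort 2, at 156 and 247 CPM and 226 and 281 CPM.

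Type I interferon-stimulated genes showed less of this. Ifng, the gene of interferon gamma, was at 0 in every class and unit. Both classes hold sorted Cd45- ECs only, so this does not describe exposure to interferon gamma from other cells. Of 23 tested type I interferon-stimulated genes, 2 were higher in all 4 units and 1 lower, with a median log2 difference of 0.12. Ifit1 stood at 43.4 and 33.8 CPM in WT sort 1, 0 and 84.1 in WT sort 2, 112 and 35.7 in KO sort 1 and 222 and 23.3 in KO sort 2.

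Among ligands for T cells, the costimulatory gene Cd86 was at 0 in every class and unit, and Cd80 was at 0 in all members. The interferon-inducible chemokine genes Cxcl9 and Cxcl10 each had a count in 2 of 155 members of WT sort 1. None of 15 tested genes of this list was higher or lower in all 4 units. The adhesion genes Vcam1 and Selp were higher in members of both WT units and lower in members of both KO units. Over all tested genes, 10.6% had 1 sign in both WT units and the opposite sign in both KO units. Vcam1 stood at 1416 and 1025 CPM, 2232 and 1265, 668 and 917, and 1027 and 1247.

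**Figure D3:**
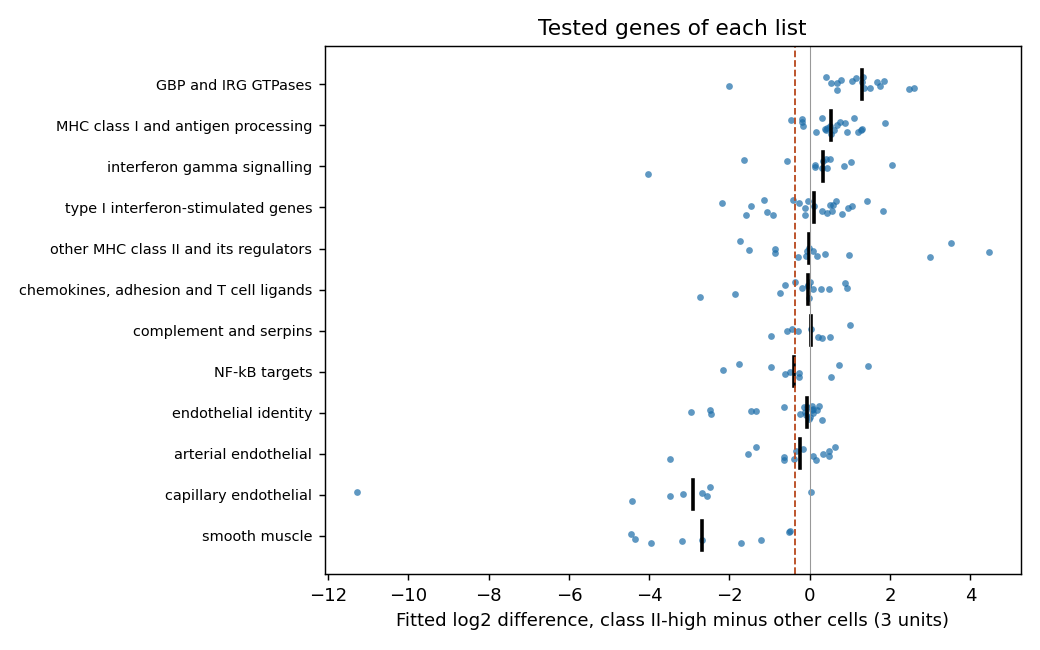
Each point is a tested gene of a list, the x axis gives its fitted log2 difference between MHC class II-high and other endothelial cells over the 3 fitted units, black bars are list medians and the dashed line is the median of all tested genes. GBP and IRG GTPases have a median of 1.3 and class I genes of 0.53, against -0.36 for all genes.

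Endothelial identity genes had a median log2 difference of -0.07 over 20 tested genes. Sox17, an arterial transcription factor, was lower in members in every unit, at 100 and 188 CPM in WT sort 1, 40.0 and 169 in WT sort 2, 54.0 and 182 in KO sort 1 and 55.6 and 181 in KO sort 2 (log2 difference -1.35, SE 0.35, adjusted p = 0.999, edgeR), as were 16.4% of all tested genes. Fabp4, a fatty acid binding protein of capillary endothelium, stood at 159 and 617 CPM, 0 and 11, 0 and 228, and 29.7 and 188. It had a count in 12 of 155 members and 27 of 60 other ECs of WT sort 1. Cd36, a fatty acid transporter, stood at 85.7 and 212 CPM in WT sort 1 and 0 and 182 in KO sort 1, but 49.2 and 1.22 in WT sort 2. These are pooled levels. Summed over a list of 10 capillary genes, medians per cell were 285 CPM in members and 709 in other ECs of WT sort 1. They were 616 and 493 in WT sort 2, 359 and 299 in KO sort 1, and 299.5 and 349 in KO sort 2. A single other EC reached 43767 CPM in KO sort 1 and another 49737 in KO sort 2. Lower capillary levels in a typical KO member were therefore not shown.

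Outside the lists, 2 genes were chosen after their values were seen. Slc6a6, the taurine transporter, had a count in 3 of 155 members and 21 of 60 other ECs of WT sort 1, at 2.34 and 639 CPM, with 0 and 77.7, 0 and 68.0, and 7.41 and 6.22 CPM in the other units. Vcan, which encodes the proteoglycan versican, had no count in any of the 172 members and was found in 10 of 60, 4 of 45, 10 of 280 and 3 of 82 other ECs. A count of 0 in 172 cells allows a share of up to 1.74% of cells with a count, for counting error only, and does not limit the cells that express the gene. Of these cells 155 came from 1 unit, and the gene was named after its values were seen. Counts of 0 in 3 or 7 cells carry little weight, and Vcan was rare among other ECs too.

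Within WT sort 1, where the group was large, the levels of the other lists were followed along the class II sum. The GBP and IRG genes together had a median of 1706 CPM in 36 cells with a class II sum up to 100, and of 1813 in 24 cells between 100 and 1000. Above the threshold the medians were 8585 in 19 cells up to 2500, 6238 in 34 cells up to 5000, 10345 in 46 cells up to 10000 and 10687 in 56 cells above. The step thus lay between the bins on either side of 1000 CPM, with little difference below it. Class I genes went from 13913 and 14346 CPM to 22562, 25308, 26261 and 28233 over the same bins. Type I interferon-stimulated genes stood at 742 and 739 below and at 1194, 1419, 1336 and 1451 above. Bins share the library and its plate, and the 19 cells of the first bin above the threshold are few.

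**Figure D4:**
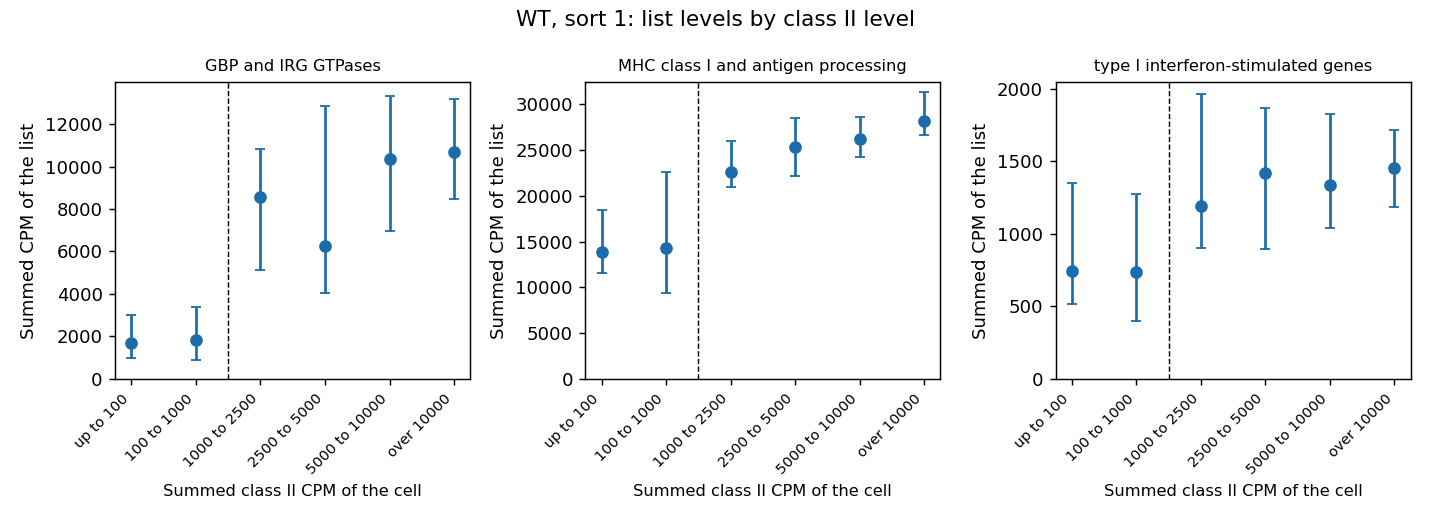
Points give the median and bars the quartiles of the summed CPM of a list over the cells of WT sort 1, by bins of the summed class II CPM, with the dashed line at the threshold of 1000. The GBP and IRG sum has medians of 1706 and 1813 below the line and 6238 to 10687 above it.

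Among the 155 members of WT sort 1 the Spearman correlation with the class II sum was 0.52 for H2-DMa and for H2-DMb1, 0.49 for H2-K1 and 0.22 for the GBP and IRG sum, and 0.12 for the number of gene counts. It was 0.35 for the fibroblast list and 0.31 for genes raised by tissue dissociation, whose part in the results was not tested. These are descriptions over cells of 1 library. Among genes detected in at least 20% of these cells and outside class II and class I, the transcription factor gene Nkx2-3 followed most closely at 0.48, with a count in 54 of the 155 cells.

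Finally, KO was compared with WT within the members, from WT sort 1 against both KO units. Of 10071 genes, 0 were higher in KO and 3 (0.0298%) lower in edgeR's quasi-likelihood test, and 81 had an unadjusted p under 0.05. The WT side was 1 unit, assumed to vary like the KO units, and 1 residual degree of freedom remained. The 3 were Lrg1, a secreted glycoprotein, Hspa1b, an inducible heat shock protein, and Cdkn1a, the cell cycle inhibitor p21. Lrg1 stood at 291 CPM in members of WT sort 1 and at 0 in those of the other 3 units, and other ECs of WT sort 1 stood at 633. Lrg1 and Cdkn1a were at 0 in members of both KO units. The filter on low counts thus let them in through WT sort 1 alone, and their calls are given as a description, with no p-value. Hspa1b stood at 384, 9.23, 4.50 and 26.0 CPM in WT sort 1, WT sort 2, KO sort 1 and KO sort 2 (adjusted p = 0.013, edgeR). Cdkn1a stood at 170, 3.08, 0 and 0 CPM. Other ECs of the 4 units, in the same order, stood at 112, 104, 14.3 and 44.5 CPM for Hspa1b and 55.9, 31.0, 61.5 and 31.2 for Cdkn1a. The 3 WT sort 2 members were low for all 3 genes, as were the KO members, so that genotype and the plate of WT sort 1 cannot be told apart. With WT sort 2 included, at 1 cell or more per unit, 0 of 8314 genes passed (260 at an unadjusted p under 0.05). With the sort as a block, on 1 residual degree of freedom, 0 were higher and 4 lower in KO, Aldh1a1, Emcn and Vcl among them. Of the 3 genes above only Hspa1b was tested in these settings, and it passed in neither. Lrg1 and Cdkn1a fell to the filter on low counts there and were not tested. Both settings were added after seeing the data.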

How the data were processed

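Members and gene lists were chosen with earlier results of these data known. The deposited table holds raw read counts per gene and well, made by the authors with STAR 2.7.7a, Picard 2.22.0 and HTSeq 0.9.1 on GRCm38, as the submitters' processing notes list them. ERCC spike-ins took 1.25% and HTSeq summary lines 46.9% of the table, and both were left out. Wells with 20000 gene counts and 500 genes were kept (784 wells, 20120 to 2000302 gene counts, median 152318). CPM was computed from gene counts. Cells of a class were summed per unit. edgeR 4.0.16 (TMM, filterByExpr, the unit as block, 2 residual degrees of freedom) tested the sums of units with 5 cells in each class, without the 4 genes of the rule. Each unit pools animals, and the p-values measure the spread between units, which may be technical. DESeq2 1.42.0 and limma 3.58.1 were alternatives. The fit was tested on simulated data. The number pairs the classes because both come from the same pool and plate. Up to 6 genes per list are named, those with the smallest p and those sought by role, beside checks for Amotl2, EYFP and Cdh5. The rule for genes outside the lists found none, since no gene passed. Promoters came from RefSeq. Some genes of the lists are not reported here. Per the methods, duplicate reads were removed with Picard before counting. Smart-seq2 has no molecular identifiers, so this went without them.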

Additional observations from a re-analysis of the deposited data

Results flagged for a closer look

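Of 52 genes singled out after their values were seen, 4 had 1 sign of the difference between members and other ECs in both WT units and the opposite sign in both KO units. Over all 11245 tested genes 10.6% had such a pattern, and 20 of 219 tested genes of the lists did. The mean WT minus mean KO log2 difference, on log2(CPM + 1), was 1.63 for Serping1, the C1 inhibitor, 1.01 for Vcam1, 0.999 for Selp and 3.31 for the smooth muscle actin gene Acta2. With at least 1 cell per class and unit, a setting added after seeing the data, the difference between genotypes passed in edgeR for Acta2 and not for the other 3. WT sort 2 has 3 members there, of which 1 had any count of the smooth muscle list.

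Endothelial wells with no Cdh5 count were outside the comparisons. Of 37 such wells, 8 reached a class II sum of 1000 CPM, 7 of them among the 20 of WT sort 1.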

How the results depend on the processing

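The shares kept WT sort 1 as the highest unit under all 6 alternatives. At a threshold of 500 CPM the KO shares moved to 6.27% (sort 1) and 28.1% (sort 2). At 2000 CPM WT sort 2 moved to 0% and KO sort 2 to 1.12%, and with at least 100000 counts per cell KO sort 2 moved to 0%. For genes between classes, where the fit called 0 higher and 0 lower, counts became 10 and 16 with at least 100000 counts per cell, 7 and 13 after thinning, 2 higher with 1 cell per unit, 7 and 6 with no filter on low counts, and 13 and 6 with DESeq2. Leaving out 1 unit gave 2 to 14 higher and 15 to 23 lower: 2 and 15 without WT sort 1, 14 and 15 without KO sort 1, 11 and 23 without KO sort 2. With fewer units the fit rests on 1 residual degree of freedom, and the cause was not tested. Without the replicate block 0 and 0 genes passed, and the block changed no call. RLE size factors, limma, the threshold of 500, no Cdh5 requirement, rule genes out of the library size and cells without immune counts also gave 0 and 0. Of named genes, Gbp7 ranged from -0.020 (without WT sort 1) to 1.21 (without KO sort 2) when 1 unit was left out, and of the other values under the alternatives 240 kept their direction and side of the threshold and 71 kept their direction and passed it. Between KO and WT within members, where 0 higher and 3 lower passed, the threshold of 500 gave 1 and 0, and DESeq2 3 higher. Added after seeing the data, 1 cell per unit gave 0 lower, or 4 lower with the sort as replicate block, and the threshold of 500 with the sort as block 13 and 12. A threshold of 2000 and 10 cells per unit left 1 unit, and the sort as block and leaving out a unit left no residual degrees of freedom. The difference of class effects between genotypes was not fitted with 5 cells per class and unit at 1000 CPM, since WT sort 2 had 3 members. At 500 CPM 0 of 11114 genes passed in edgeR (308 at an unadjusted p under 0.05). With 1 cell per class and unit, added after seeing the data, 0 of 11049 genes had a higher and 22 a lower class difference in KO than in WT, Acta2, Tagln, Cd36 and Lrg1 among them (474 at an unadjusted p under 0.05). RLE, no filter, DESeq2 and leaving out a unit were not run for it. Acta2 and Tagln are smooth muscle genes, and 1 of the 3 members of WT sort 2 had any count of the smooth muscle list.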
